A study of Mus musculus with 12 samples.

Results

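The genes described here are 40 named members of the ATF4 stress response and of the amino acid supply that it governs, chosen by gene symbol from a table of 17922 mouse genes, and all 40 were found. They comprise 4 genes for eIF2 kinases and an eIF2 phosphatase subunit, 7 transcription factors, 6 feedback and effector genes, 10 enzymes of amino acid and folate metabolism, 8 amino acid transporters and 5 tRNA synthetases. ATF4 is a transcription factor that is made when eIF2, the factor that brings the initiator tRNA to the ribosome, is phosphorylated by a stress kinase: general translation slows, while the ATF4 message is translated more. ATF4 then switches on genes that make, import and charge amino acids onto tRNA, together with genes that restore eIF2 or, under lasting stress, favour cell death. Cartilage cells secrete large amounts of matrix protein and are known to use this response during growth plate development. Because ATF4 is controlled mainly by translation, the amount of its mRNA is only part of its activity, and protein was not measured.

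RNA was sequenced from primary rib chondrocytes, the cells that build rib cartilage, isolated with collagenase from C57BL/6-dominant mixed mice and kept in culture overnight. The LDH knockout came from postnatal day 5 (P5) Col2-Cre mice with floxed Ldha and with 1 Ldhb allele deleted; the Acly knockout came from embryonic Col2-Cre mice with floxed Acly at stage E18.5. Ldha and Ldhb encode the subunits of lactate dehydrogenase, which turns pyruvate into lactate, and Acly encodes ATP citrate lyase, which makes cytosolic acetyl-CoA. Each knockout was set against its own littermate controls, with 3 samples in each of the 4 groups; the labels call the controls only controls and do not give their alleles or whether they carried Cre. The Col2-Cre driver is active in the chondrocyte lineage, so cells of other lineages in a sample keep their alleles. The stated purpose was to see how less glycolysis and less cytosolic acetyl-CoA affect skeletal development.

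Each sample held between 26362407 and 28154143 estimated read counts, of which the 40 members took 1.45 to 1.77%. A level is given below in CPM, counts per 1000000 reads after scaling within the 6 samples of a comparison. Sums over cell type markers or Y-linked genes are per 1000000 reads of each sample, without that scaling. Before scaling, 3 counts correspond to 0.107 to 0.114 CPM. Every member passed the filter on low counts in every comparison. Ldha stood at 79.3, 88.8 and 92.1 CPM in the LDH knockouts and at 851, 792 and 894 CPM in their controls, and Acly at 83.0, 52.5 and 87.0 CPM in the Acly knockouts and at 197, 192 and 202 CPM in theirs. Both targeted genes fell (log2 fold change -3.29 ± 0.10 SE, adjusted p = 3.26e-07 for Ldha; -1.41 ± 0.17, adjusted p = 0.0313 for Acly; edgeR quasi-likelihood test). Ldhb mRNA was not lower in the LDH knockouts, at 15.1 ± 1.14 against 11.7 ± 0.529 CPM (SD, n = 3; adjusted p = 0.115). All 9 chondrocyte markers, Col2a1 and Acan among them, were above 0 in every sample of each group except for 1 marker in the LDH controls, and their summed level was higher in the knockouts: 18800 to 27800 against 10500 to 12000 CPM for LDH and 15300 to 17300 against 9130 to 10300 CPM for Acly.

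Several other features moved with genotype, and their part in the results below was not tested. In the LDH set the summed level of 7 osteoblast and osteocyte markers was 12 to 27.6 CPM in knockouts against 57.2 to 74.6 in controls, with Dmp1 at 0 in the knockouts and Mepe at 0 in both groups, and that of 7 adipocyte markers was 19.1 to 76.4 against 2.23 to 3.02 CPM. In the Acly set the 6 fibroblast and perichondrium markers summed to 1120 to 3160 CPM in knockouts against 3500 to 4220 in controls, and the 7 osteoblast and osteocyte markers to 88.2 to 128 against 143 to 162 CPM, with Mepe at 0 in the knockouts. The 5 macrophage and leukocyte markers summed to 127 to 147 CPM in Acly knockouts against 106 to 123 in controls, and the 6 skeletal muscle markers, with overlap, to 67.5 to 191 against 180 to 244 CPM. The 4 Y-linked genes summed to at most 0.0367 CPM in every LDH knockout but to 93 and 102 CPM in LDH controls 1 and 2 and 0.59 CPM in control 3; in the Acly set they were at 74.3, 82.8 and 121 CPM in knockouts 2 and 3 and control 2 and at most 2.83 CPM in the other 3 samples. Library Acly knockout 2 stood apart: it had the lowest Acly level, the lowest fibroblast marker sum (1120 CPM against 3100 and 3160 in the other knockouts), and the highest or the lowest value of the 6 samples for 31% and 32.5% of all tested genes. In RNA from a mixed cell population, fewer cells of a type and less RNA per cell cannot be told apart.

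ATF4 binds DNA together with a C/EBP partner at a composite element whose core is TGATGNAA, and the promoters of the members are shown here because this element is a known route by which ATF4 reaches target genes. In windows from 250 bases before to 50 bases after the start of each gene (RefSeq, build GRCm38.p6), the core was found on either strand in 11 of the 36 members that have a window, 30.6%, and in 451 of 14008 genes, 3.22%. The stricter form TGATGCAA was found in 8 members, 22.2%, and in 114 genes, 0.814%. The members were chosen by name for the ATF4 response and amino acid supply, so a higher share among them is a description and not independent evidence. A match is a run of letters and does not show that a factor binds there. The windows of Nupr1 and Slc1a4, the members with a match that stood among the leading differences of a knockout comparison, run from 150 bases before to 10 bases after the start, in the direction of the gene, with the core or its reverse complement in capitals.
Nupr1 (chr7:126625461-126625620, minus strand): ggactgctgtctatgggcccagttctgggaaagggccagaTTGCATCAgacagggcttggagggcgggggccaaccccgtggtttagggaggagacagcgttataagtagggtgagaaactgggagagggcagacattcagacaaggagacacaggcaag
Slc1a4 (chr11:20332704-20332863, minus strand): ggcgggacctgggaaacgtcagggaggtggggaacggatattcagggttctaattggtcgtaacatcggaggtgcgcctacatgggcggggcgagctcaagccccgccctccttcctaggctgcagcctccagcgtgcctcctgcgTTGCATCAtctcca

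The matches in the other 9 members are given with 8 bases on each side, again in the direction of the gene and with the core in capitals, so that the variable sixth base can be compared. In Atf3, Chac1, Vldlr, Pycr1 and Slc7a11 every match was the stricter form or its reverse complement, TTGCATCA. Slc7a11, the cystine importer, held 2 matches in opposite directions, and Aars held 1 strict match before its start and 1 loose match after it.
Atf3 (chr1:191183428-191183451, minus strand): tctcgcacTTGCATCAccaagtcc
Trib3 (chr2:152344031-152344054, minus strand): gctcaggtTTACATCAgccgggcg
Chac1 (chr2:119351041-119351064, plus strand): ccctgccgTTGCATCActcctgcc
Vldlr (chr19:27216812-27216835, plus strand): agcaatagTTGCATCAgcgctcct
Asns (chr6:7693217-7693240, minus strand): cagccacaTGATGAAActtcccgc
Pycr1 (chr11:120643836-120643859, minus strand): cctgtgtaTGATGCAAtgcacaag
Slc7a11 (chr3:50443664-50443687, minus strand): catgtggcTGATGCAAacctggag
Slc7a11 (chr3:50443645-50443668, minus strand): tggagaatTTGCATCAtcatgcag
Aars (chr8:111033722-111033745, plus strand): cttgagcaTTGCATCAgccgagcc
Aars (chr8:111033843-111033866, plus strand): gggtcactTTTCATCAgagcgctc
Gars (chr6:55037963-55037986, plus strand): ctgcgctaTTTCATCAtgcaccgg

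Levels between genes were compared per transcript length, as the authors' FPKM values. In the LDH controls Atf4 was the highest member at a mean of 796 FPKM, followed by Atf5 at 734, Ddit3 at 670, Nupr1 at 604 and Ppp1r15a at 551 FPKM. The members ranged from 3.36 FPKM for Slc7a11 to that Atf4 value, with a median of 128 FPKM, and the stress kinases Eif2ak3 (12.8 FPKM) and Eif2ak4 (4.04 FPKM) were near the bottom. Atf4 also ranked highest in the Acly controls (685 FPKM) and Acly knockouts (762 FPKM), while Nupr1 ranked highest in the LDH knockouts at 803 FPKM. The median coefficient of variation of a member's FPKM within a group, in controls and knockouts, was 7.04% and 7.61% in the LDH set and 5.27% and 11.0% in the Acly set.

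In the LDH knockouts 2 of the 40 members changed, in opposite directions: Eif2ak3, which encodes the endoplasmic reticulum stress kinase PERK, fell, and Adm2, a secreted peptide hormone of the adrenomedullin family and an ATF4 target, rose. That is 5% of the members, against 2.49% of the 13321 genes tested (332 genes past an adjusted p of 0.05, edgeR; 1.43% higher and 1.07% lower). Members' log2 fold changes lay between -0.64 and 0.53, no member changed by 2-fold or more, and only Eif2ak3 differed by more than 1.5-fold. The median log2 fold change of the members was 0.05 and that of all tested genes 0.01. At an unadjusted p under 0.05 there were 7 members higher and 4 lower, against a background of 9.79% and 9.83% of genes. The groups did not overlap for 7 members that were higher in the knockouts (17.5%, background 11.9%) and 3 that were lower (7.5%, background 12.5%); without library scaling these counts were 8 and 8, against 11.6% and 12.8% of all genes.

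**Figure D1:**
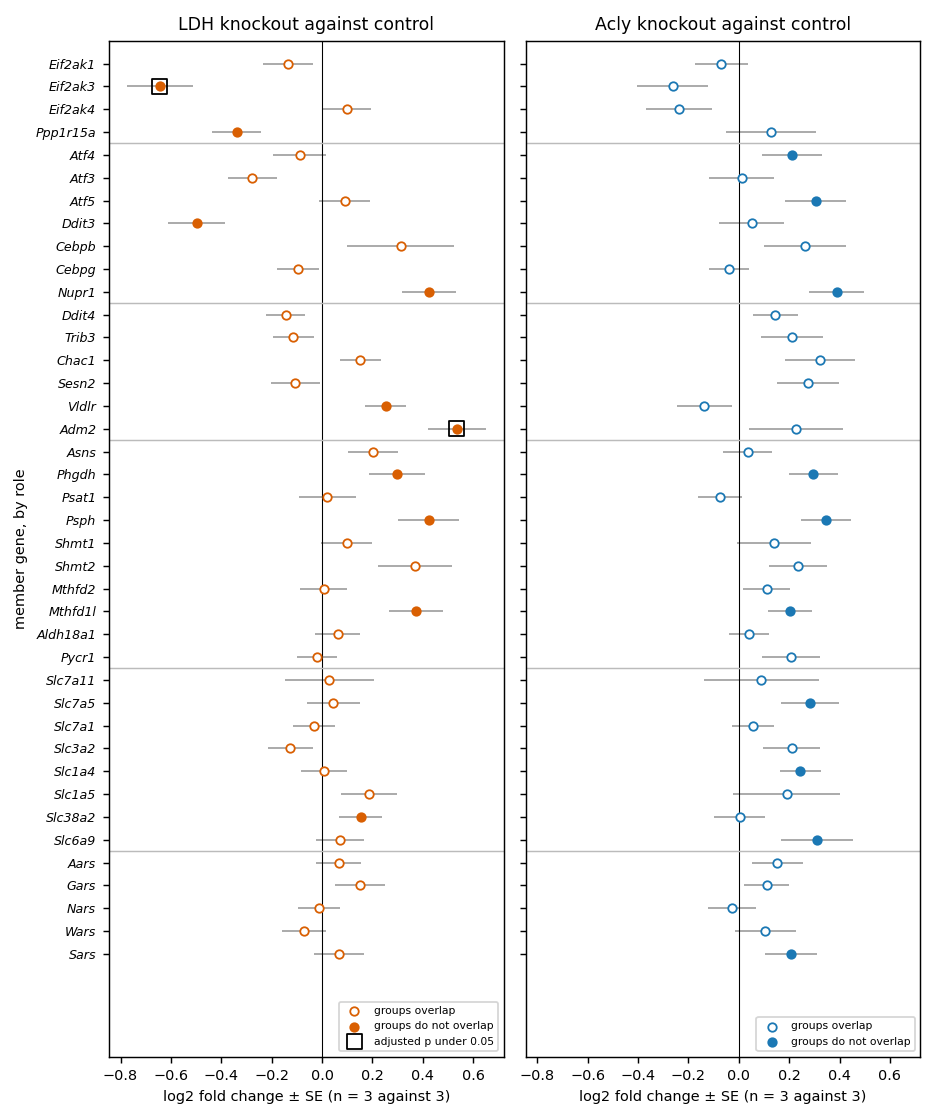
Log2 fold change ± SE of each of the 40 members in the LDH knockout (left) and the Acly knockout (right) against their own controls, n = 3 against 3; grey lines part the 6 roles, filled points mark members whose 2 groups do not overlap, and squares mark an adjusted p under 0.05. The squares fall on Eif2ak3 and Adm2 in the LDH panel, while 33 of the 40 points in the Acly panel lie above 0.

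Among the eIF2 kinases and phosphatase, Eif2ak3 read 33.0, 28.4 and 42.6 CPM in the LDH knockouts and 55.7, 54.2 and 52.8 CPM in the controls. All 3 knockouts lay below all 3 controls, with knockout 3 the closest (log2 fold change -0.64 ± 0.13 SE, adjusted p = 0.036). Ppp1r15a encodes GADD34, the inducible subunit that directs a phosphatase to eIF2 and lets translation resume. Its levels were 1016, 909 and 1021 CPM against 1144, 1211 and 1368 CPM, again without overlap, but it did not pass the threshold (log2 fold change -0.34 ± 0.10, adjusted p = 0.0989). Eif2ak1, the haem-regulated kinase, and Eif2ak4, which encodes the amino acid sensor GCN2, differed by -0.13 and 0.10 on the log2 scale, within groups that overlapped.

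Of the transcription factors none passed the threshold in the LDH knockout. Atf4 mRNA itself read 1209, 1261 and 1228 CPM in knockouts and 1241, 1180 and 1513 CPM in controls, and the knockouts lay within the range of the controls (log2 fold change -0.09 ± 0.10, adjusted p = 0.681). Ddit3, which encodes the pro-apoptotic factor CHOP, was just outside the threshold: 357, 358 and 454 CPM against 501, 567 and 582 CPM (-0.50 ± 0.11, adjusted p = 0.0532). Nupr1, a small stress-induced chromatin protein, differed the other way, at 483, 449 and 400 CPM against 341, 293 and 359 CPM (0.42 ± 0.11, adjusted p = 0.0676). Neither gene's groups overlapped. Atf3, a stress-induced repressor, was at 79.0, 71.6 and 89.4 CPM against 89.1, 102 and 99.2 CPM, where knockout 3 just exceeded control 1 (-0.28 ± 0.10, adjusted p = 0.156). Atf5, Cebpb and Cebpg, the last of which encodes a partner of ATF4, had log2 fold changes of 0.09, 0.31 and -0.10 with overlapping groups; Cebpb had the widest error of the members, at 0.21.

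Adm2 led the feedback and effector genes. It read 235, 220 and 206 CPM in the LDH knockouts and 141, 135 and 181 CPM in the controls, so that control 3 came closest to the knockouts (log2 fold change 0.53 ± 0.11, adjusted p = 0.0438). Vldlr, the very low density lipoprotein receptor, was at 119, 132 and 122 CPM against 109, 108 and 96.1 CPM, without overlap (0.25 ± 0.08, adjusted p = 0.125). The other 4 differed little: Ddit4 and Sesn2, both inhibitors of mTORC1 signalling, by -0.14 and -0.11, Trib3, a pseudokinase that feeds back on ATF4, by -0.11, and Chac1, which degrades glutathione, by 0.15.

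The enzymes showed no member past the threshold in the LDH knockout, and 9 of 10 had a log2 fold change above 0, with a median of 0.15; of all tested genes 51% were above 0. The largest differences were in serine synthesis and in the mitochondrial folate pathway. Psph, which carries out the last step of serine synthesis, was at 63.1, 76.9 and 53.1 CPM in knockouts and 47.3, 48.7 and 48.1 CPM in controls (0.42 ± 0.12, adjusted p = 0.0979). Phgdh, the entry enzyme of the same pathway, was at 556, 606 and 489 CPM against 391, 470 and 482 CPM (0.30 ± 0.11, adjusted p = 0.181). Mthfd1l, which releases formate from mitochondrial folate, was at 126, 141 and 103 CPM against 94.2, 98.9 and 92.8 CPM (0.37 ± 0.11, adjusted p = 0.0989). For these 3 enzymes the groups did not overlap, and knockout 3 was the lowest knockout each time. Shmt2, the mitochondrial serine hydroxymethyltransferase, was at 765, 859 and 566 CPM against 556, 512 and 629 CPM, where knockout 3 lay inside the control range (0.37 ± 0.15, adjusted p = 0.206). Psat1, the middle enzyme of serine synthesis, and Mthfd2, the ATF4-responsive mitochondrial folate dehydrogenase, differed by 0.02 ± 0.11 and 0.01 ± 0.09. Their signs changed in 5 and 7 of 14 alternatives. Asns, asparagine synthetase, differed by 0.20, the cytosolic Shmt1 by 0.10, and the proline synthesis genes Aldh18a1 and Pycr1 by 0.06 and -0.02.

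No transporter or synthetase was called with LDH. None of the 8 transporters reached an unadjusted p of 0.05, and their log2 fold changes lay between -0.13 for Slc3a2, the heavy chain of several exchangers, and 0.18 for Slc1a5, a glutamine carrier. Slc38a2, which imports small neutral amino acids, was at 348, 381 and 355 CPM against 341, 331 and 302 CPM, without overlap (0.15 ± 0.08, adjusted p = 0.352). Slc7a5 and Slc7a1, carriers of large neutral and cationic amino acids, differed by 0.04 and -0.03. The 5 synthetases, which charge alanine (Aars), glycine (Gars), asparagine (Nars), tryptophan (Wars) and serine (Sars) onto their tRNAs, differed by 0.07, 0.15, -0.01, -0.07 and 0.07.

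The LDH calls rested on small margins. Eif2ak3 and Adm2 lost the threshold when knockout 1 was left out (adjusted p = 0.156 and 0.164), knockout 2 (0.0997 and 0.112), control 1 (0.101 and 0.142) or control 2 (0.088 and 0.129); without control 3 Eif2ak3 was at 0.0902 and Adm2 at 0.0271. Without knockout 3 there were 8 members called, 5 higher (Adm2, Nupr1, Psph, Mthfd1l and Shmt2) and 3 lower (Eif2ak3, Ddit3 and Atf3), as 1068 of all genes then passed. DESeq2 called 7 members (Eif2ak3, Adm2, Ddit3, Nupr1, Psph, Mthfd1l and Ppp1r15a) and 902 genes. With the Y-linked signal as a covariate no member and 3 genes in all passed. Eif2ak3 was then at -0.60 on the log2 scale, Ddit3 at -0.59 and Nupr1 at 0.28, whereas Adm2 was reduced from 0.53 to 0.24. Genotype and Y-linked signal nearly coincide in this set, where only control 3, at 0.59 CPM, was near the knockouts. The adjusted effects therefore rest mainly on that library, and this fit cannot separate genotype from Y-linked signal.

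**Figure D2:**
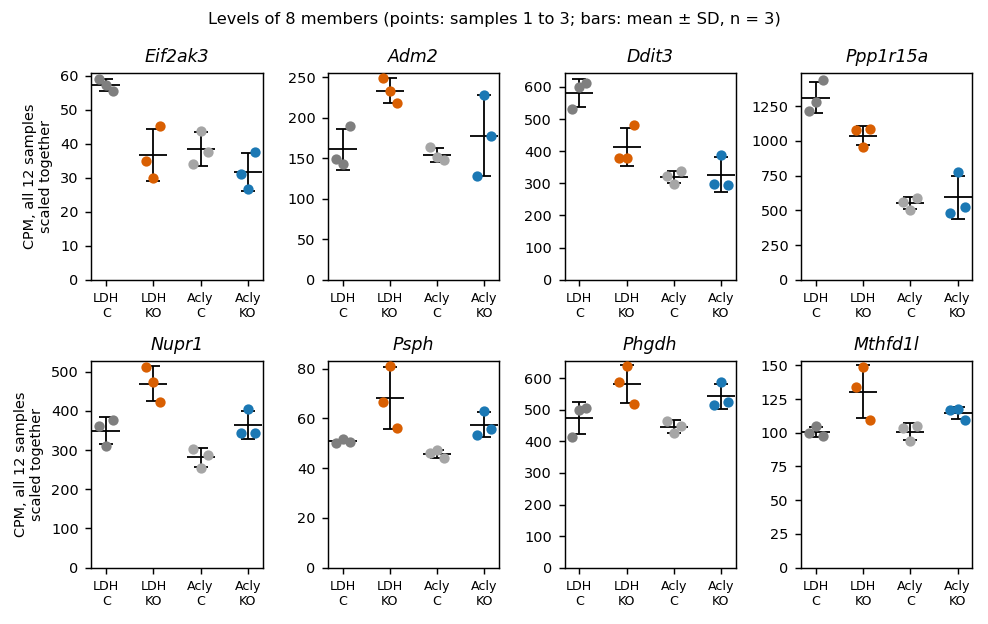
CPM of 8 members in the 12 samples, scaled together; points are samples 1 to 3 of each group (C, control; KO, knockout) and bars are the mean ± SD, n = 3. Nupr1, Psph, Phgdh and Mthfd1l are higher without overlap in each knockout than in its own control, and Ppp1r15a and Ddit3 are higher in the LDH controls than in the Acly controls.

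In the Acly knockouts no member passed the threshold (0 of 40; 19 of 13973 genes, 0.136%), and none was called by DESeq2 either. The members nonetheless lay mostly on the higher side: 33 of 40, 82.5%, had a log2 fold change above 0, against 49.7% of all tested genes, with a median of 0.15 against 0.00. At an unadjusted p under 0.05 there were 8 members higher and none lower by edgeR, where 7.26% and 8.57% of all genes were higher and lower. DESeq2 gave 10 and 0, with 2155 of 17449 genes at that level in either direction. The groups did not overlap for 10 members that were higher, 25% (background 10.7%), and for none that was lower (background 11.3%). Log2 fold changes ranged from -0.26 for Eif2ak3 to 0.39 for Nupr1.

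A single library stood out in this pattern. Acly knockout 2 had the highest CPM of the 6 samples for 29 of the 40 members, 72.5%, against 31% of all tested genes, and Acly control 2 had the lowest for 17, 42.5%, against 18.8%. Without Acly knockout 2 the members' median log2 fold change was 0.08 and 26 of 40 were above 0. At an unadjusted edgeR p under 0.05 there were 4 of the 40 members, all higher. In either direction 2151 of 14145 genes were at that level. The share of all genes that were higher at that level is not given for this fit. No member was called, although 132 of all genes then passed. The counts without overlap were 10 higher and 2 lower, against a background of 15.9% and 16.1% with 2 samples against 3. Without library scaling, which moved the median of all genes to -0.05, 28 members were above 0 and their median was 0.10.

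**Figure D3:**
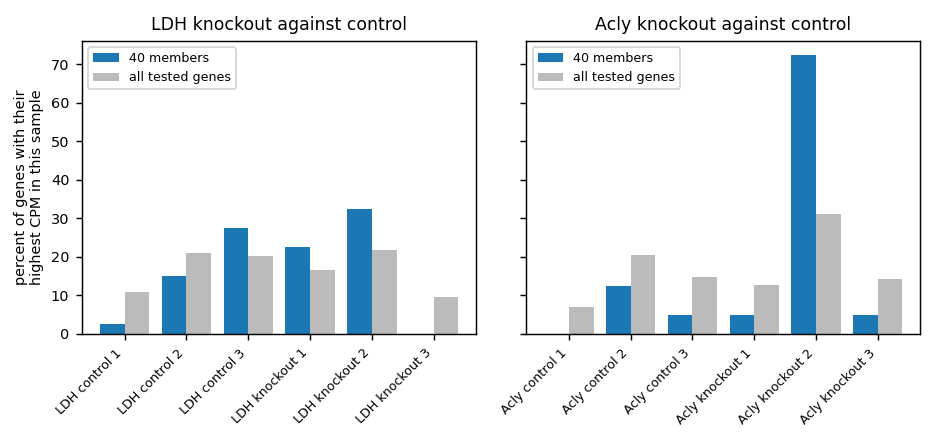
Percent of genes that have their highest CPM in the given sample, for the 40 members (blue) and for all tested genes (grey), in the LDH set (left) and the Acly set (right). Acly knockout 2 holds 72.5% of the members' highest values, while in the LDH set the highest share is 32.5%, in LDH knockout 2.

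Among the transcription factors in the Acly set, Nupr1 had the lowest p of the members, at 362, 439 and 363 CPM in knockouts and 317, 269 and 302 CPM in controls (log2 fold change 0.39 ± 0.11, adjusted p = 0.232). Atf5, an ATF4 target that also acts in mitochondrial stress, was at 1112, 1487 and 1193 CPM against 1090, 964 and 1014 CPM (0.31 ± 0.12, adjusted p = 0.294). Atf4 was at 1166, 1522 and 1176 CPM against 1135, 1056 and 1150 CPM (0.21 ± 0.12, adjusted p = 0.398). The groups of these 3 genes did not overlap, and knockout 2 was the highest in each. For Atf4 and Atf5 knockout 1 lay only just above the highest control. Ddit3 was at 313, 422 and 310 CPM against 337, 316 and 357 CPM: knockouts 1 and 3 lay below all controls and knockout 2 above them (0.05 ± 0.13, adjusted p = 0.856). Ppp1r15a was lowest in knockout 1 and highest in knockout 2, at 505, 839 and 556 CPM against 590, 530 and 619 CPM, with knockout 3 inside their range (0.13 ± 0.18, adjusted p = 0.725).

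The kinases leaned the other way. Eif2ak3 was at 32.6, 28.9 and 39.8 CPM in Acly knockouts and 35.7, 46.2 and 39.7 CPM in controls, with overlapping groups (log2 fold change -0.26 ± 0.14, adjusted p = 0.381). Eif2ak4 and Eif2ak1 differed by -0.24 and -0.07. Of the 6 feedback and effector genes 5 were above 0. Chac1 was at 147, 217 and 167 CPM against 150, 137 and 137 CPM (0.32 ± 0.14, adjusted p = 0.311). Adm2, called higher in the LDH knockouts, spread here from 135 to 247 CPM in the knockouts around controls of 155 to 172 CPM (0.23 ± 0.19, adjusted p = 0.542). Vldlr differed by -0.14, the only one of this role below 0.

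The enzymes and transporters held 6 of the 10 members whose Acly groups did not overlap: 3 of 10 enzymes (30%) and 3 of 8 transporters (37.5%). The transcription factors held 3 of 7 (42.9%) and the synthetases 1 of 5 (20%). Of all tested genes 10.7% were higher without overlap. Psph was at 56.2, 68.6 and 58.8 CPM in knockouts and 48.2, 49.9 and 46.3 CPM in controls (0.35 ± 0.10, adjusted p = 0.233). Phgdh was at 541, 637 and 555 CPM against 488, 449 and 474 CPM (0.30 ± 0.10, adjusted p = 0.254), and Mthfd1l at 123, 128 and 116 CPM against 108, 99.0 and 111 CPM (0.20 ± 0.09, adjusted p = 0.311). Knockout 2 was the highest in all 3, and without it their log2 fold changes were 0.26, 0.22 and 0.17. The enzyme list as a whole had 9 of 10 members above 0 and a median of 0.17. Psat1, between Phgdh and Psph in the pathway, was the exception at -0.08. The sign of Asns (0.04) changed in 4 of 14 alternatives and that of Aldh18a1 (0.04) in 2.

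All 8 transporters had a log2 fold change above 0 in the Acly knockouts, with a median of 0.20, and none was called. The sign was not stable for 3 of them: that of Slc38a2 (0.00 ± 0.10) changed in 7 of 14 alternatives, that of Slc7a11 in 3 and that of Slc1a5 in 1. Slc1a4, which exchanges alanine, serine and cysteine and whose promoter window is printed above, was at 124, 121 and 125 CPM against 101, 110 and 101 CPM (0.24 ± 0.08, adjusted p = 0.259). Here knockout 2 was the lowest of the knockouts. Slc7a5 was at 762, 988 and 777 CPM against 718, 683 and 678 CPM (0.28 ± 0.12, adjusted p = 0.301) and Slc6a9, a glycine transporter, at 612, 870 and 612 CPM against 601, 541 and 546 CPM (0.31 ± 0.14, adjusted p = 0.33). Slc1a5 showed how far knockout 2 could stand from the rest, at 540, 987 and 565 CPM against 615, 558 and 662 CPM (0.19 ± 0.21, adjusted p = 0.656). Slc7a11 went the other way, at 66.9, 34.2 and 43.9 CPM, lowest in knockout 2, against 38.7, 54.8 and 42.8 CPM (0.09 ± 0.23). Of the synthetases, Sars did not overlap, at 546, 626 and 536 CPM against 528, 452 and 500 CPM (0.21 ± 0.10, adjusted p = 0.35), and the other 4 differed by -0.03 to 0.15.

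**Figure D4:**
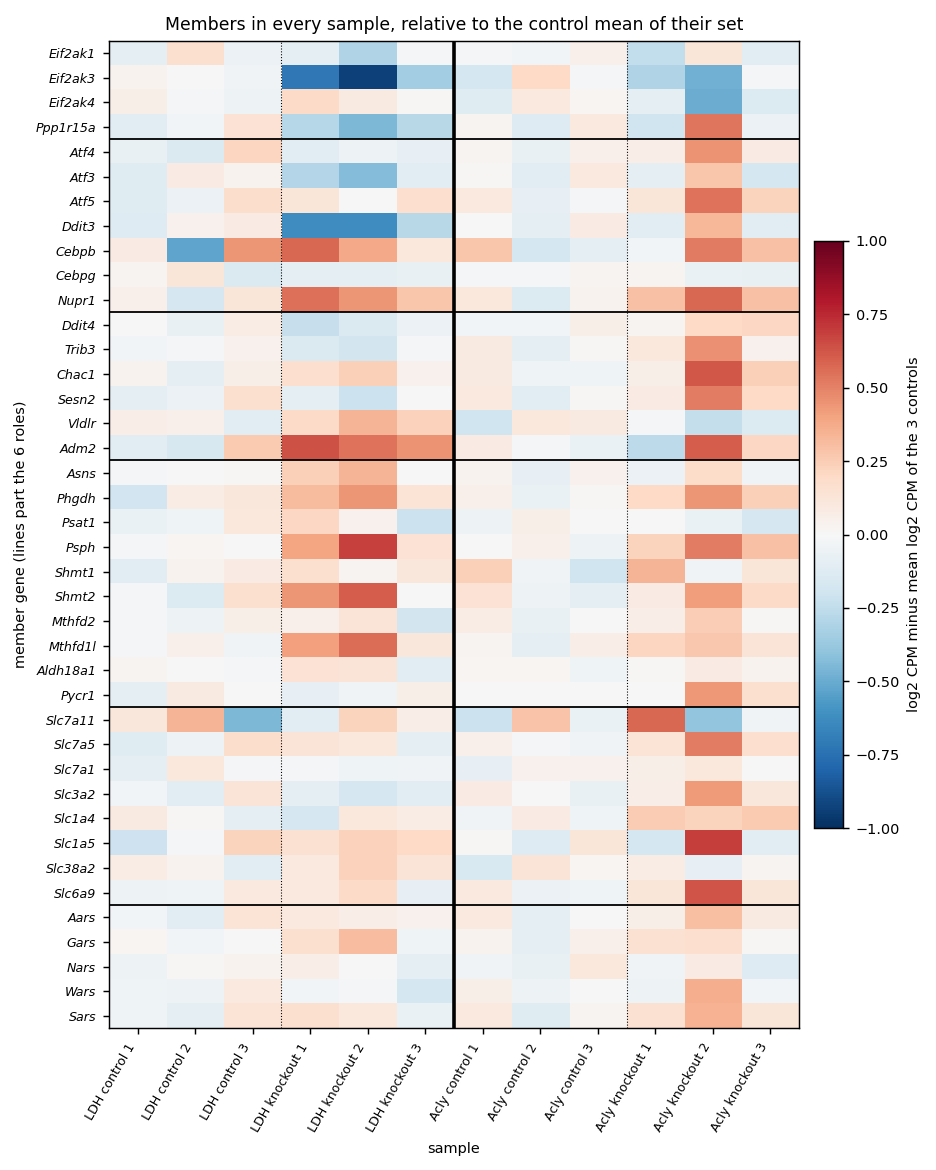
Log2 CPM of the 40 members in each of the 12 samples, minus the mean log2 CPM of the 3 controls of the same set; black lines part the roles and the LDH and Acly sets, and dotted lines part controls from knockouts. Eif2ak3 and Ddit3 are blue in all 3 LDH knockouts, Nupr1 and Psph are red in all 6 knockouts, and Acly knockout 2 is red for most members.

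The 2 knockout comparisons share no samples. Nupr1, Phgdh, Psph and Mthfd1l were higher without overlap in both, which is 57.1% of the 7 such members of the LDH comparison and 40% of the 10 of the Acly comparison. They are 10% of the 40 members, and 260 of the 13140 genes tested in both comparisons, 1.98%, had the same pattern. Of all genes tested in each comparison, 1581 were higher without overlap with LDH and 1489 with Acly. No member was without overlap in opposite directions, a pattern held by only 0.662% and 0.67% of all genes for the 2 orders. None of the 4 passed the adjusted threshold in either comparison. When each sample was left out in turn, the LDH log2 fold change ranged from 0.34 to 0.49 for Nupr1, 0.21 to 0.38 for Phgdh, 0.28 to 0.54 for Psph and 0.27 to 0.49 for Mthfd1l. The upper values came without LDH knockout 3, and the lower ones without LDH control 2 (Nupr1), control 1 (Phgdh) and knockout 2 (Psph and Mthfd1l). The Acly log2 fold changes ranged from 0.29 to 0.44, 0.22 to 0.34, 0.26 to 0.40 and 0.16 to 0.24, lowest without Acly knockout 2 except for Mthfd1l, which was lowest without control 2. With the Y-linked signal as a covariate the 4 values, in the same order, were 0.40, 0.29, 0.32 and 0.22 for Acly and 0.28, 0.18, 0.42 and 0.42 for LDH. The LDH values again rest mainly on LDH control 3.

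The difference between the knockout effects, LDH minus Acly, was tested in a fit of all 12 samples. No member passed (0 of 40; 23 of 14251 genes, 0.161%; 0 members by DESeq2), and 6 had an unadjusted p under 0.05 (13% of all genes). Ddit3 had the lowest p, with a difference of -0.53 ± 0.18 (adjusted p = 0.268), since it differed by -0.50 with LDH and 0.05 with Acly. Vldlr had a difference of 0.40 ± 0.14 (adjusted p = 0.276). Ddit4, Slc3a2, Sesn2 and Trib3 had differences of -0.27, -0.32, -0.36 and -0.31. For Eif2ak3, called in the LDH comparison alone, and for Adm2, the difference of effects thus did not pass. In the edgeR fit of all 12 samples the LDH effect of Adm2 was itself not called (adjusted p = 0.0986).

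The control groups differed far more from each other than either knockout did from its controls. Between the Acly controls at E18.5 and the LDH controls at P5, age, mouse line and library set cannot be told apart. Markers of other cell types moved with them: all 6 fibroblast and perichondrium, all 6 skeletal muscle, all 4 endothelial and all 6 tested adipocyte markers were called higher in the Acly controls, with median log2 fold changes of 3.15, 4.48, 2.64 and 3.92. Of the 9 chondrocyte markers 7 were called higher and 1 lower (median 1.33). The summed chondrocyte marker level was nonetheless lower in the Acly controls, at 9130 to 10300 CPM against 10500 to 12000 CPM in the LDH controls. The part of these markers in the differences of the members was not tested. Of the 40 members 21 passed, 52.5%, against 55% of the 14251 genes tested, a share near the background. The direction was uneven: 19 were lower in the Acly controls (47.5%, background 25.7%) and 2 were higher, Shmt2 (0.36 ± 0.14, adjusted p = 0.0408) and Slc38a2 (0.34 ± 0.09, adjusted p = 0.006; background 29.4%). This split, and the share near the background, depend on the scaling. Without library scaling 11 of the 40 members passed, 5 higher and 6 lower, against 53.2% of all genes. The median of all genes then moved from 0.02 to 0.19 and the share of all calls that were higher from 53.3% to 72.4%. By limma on FPKM there were also 5 higher and 6 lower, against 52.4% of all genes.

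The largest differences were all toward lower levels at E18.5. Ppp1r15a was at 563, 502 and 587 CPM in the Acly controls and 1216, 1283 and 1438 CPM in the LDH controls, all 12 samples scaled together (-1.25 ± 0.15, adjusted p = 1.56e-05). Ddit3 was at 321, 299 and 338 CPM against 533, 601 and 612 CPM (-0.87 ± 0.12, adjusted p = 7.51e-05). Slc7a1, the cationic amino acid carrier, was at 391, 423 and 424 CPM against 647, 739 and 672 CPM (-0.73 ± 0.07, adjusted p = 4.24e-06), and Sesn2 at 178, 152 and 167 CPM against 257, 263 and 304 CPM (-0.73 ± 0.11, adjusted p = 0.000104). These 4, with Nars and Aars, were the 6 called lower also without library scaling. By role, 6 of the 7 transcription factors, 3 of the 5 synthetases, 3 of the 6 feedback genes, 3 of the 8 transporters, 2 of the 4 kinase and phosphatase genes and 2 of the 10 enzymes were called lower. Of all tested genes 25.7% were called lower. Without library scaling Ddit3 was the only transcription factor called, so the counts by role depend on the scaling too.

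The rest of the pathway was followed in 107 further genes, in 7 lists. These lists were chosen with earlier results of these data known, so their counts are descriptions. The clearest pattern lay in the branch of the unfolded protein response that ATF6 and XBP1 run, whose targets fold proteins in the endoplasmic reticulum. In the LDH knockouts all 10 listed folding genes were lower without overlap and 5 fell past the threshold, with a median log2 fold change of -0.92; of all tested genes 12.5% were lower without overlap and 1.07% called lower. The chaperone Hspa5 (BiP) was at 2038, 1647 and 3173 CPM against 4031, 4731 and 4202 CPM (-0.92 ± 0.20, adjusted p = 0.0487), and Xbp1 at 128, 111 and 147 CPM against 183, 214 and 196 CPM (-0.62 ± 0.11, adjusted p = 0.0223). Dnajb9, Creld2 and Derl3 fell by 1.13, 0.96 and 1.94 on the log2 scale. In the Acly knockouts none of the 10 passed, all 10 were below 0 with a median of -0.57, and 9 had an unadjusted p under 0.05 (8.57% of all genes were lower at that level); Hspa5 was at 1290, 1357 and 1294 CPM against 1800, 2101 and 1964 CPM (-0.57 ± 0.09, adjusted p = 0.0764). Acly knockout 2, highest for most members, lay beside the other knockouts in Hspa5.

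Of 16 other ATF4 target genes, 1 was called in the LDH knockouts (6.25%, background 2.49%): Herpud1, an endoplasmic reticulum degradation factor that ATF6 also controls, fell by 0.83 on the log2 scale (248, 223 and 347 against 474, 499 and 483 CPM, adjusted p = 0.0219). Pck2, the mitochondrial PEP carboxykinase, was next at 0.52 ± 0.13 (adjusted p = 0.074). In the Acly knockouts none was called and Jdp2, a basic leucine zipper factor, had the lowest p (58.6, 58.2 and 57.3 against 43.1, 42.1 and 44.6 CPM, 0.42 ± 0.08, adjusted p = 0.114). Of 18 other amino acid transporters, 2 rose in the LDH knockouts (11.1%, background 1.43% called higher). Slc38a3 was at 26.5, 41.6 and 38.2 CPM against 17.4, 17.3 and 24.2 CPM (0.85 ± 0.18, adjusted p = 0.0422) and Slc38a4 at 15.7, 16.7 and 16.3 CPM against 10.5, 10.2 and 7.55 CPM (0.78 ± 0.14, adjusted p = 0.0243). Of the other listed genes of their family, Slc38a1, Slc38a7, Slc38a9 and Slc38a10 differed by -0.09, 0.07, -0.15 and -0.20 and none was called. Slc38a3 was also higher without overlap in the Acly knockouts (0.42 ± 0.09, adjusted p = 0.169).

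Of the 19 other amino acid and folate enzymes tested with LDH, 2 fell (10.5%, background 1.07% called lower). Bcat2, the mitochondrial branched-chain aminotransferase, was at 69.2, 78.9 and 78.9 CPM against 113, 119 and 122 CPM (-0.64 ± 0.08, adjusted p = 0.00716), and its effect differed between the knockouts (difference -0.75 ± 0.11, adjusted p = 0.0267). Arg2, mitochondrial arginase, was at 3.01, 3.54 and 3.4 CPM against 6.07, 6.96 and 7.47 CPM (-1.04 ± 0.16, adjusted p = 0.0123), and in the Acly knockouts at 1.26, 2.17 and 0.971 CPM against 4.36, 3.70 and 4.64 CPM (-1.53 ± 0.30, adjusted p = 0.12). No gene was called in either knockout among the 10 eIF2 and eIF2B subunits and regulators, the 15 other cytosolic synthetases and the 17 mitochondrial synthetases. Their median log2 fold changes were 0.02, 0.01 and 0.11 with LDH and -0.03, 0.05 and 0.02 with Acly. The lowest p in the eIF2 list with LDH was that of the X-linked eIF2 subunit gene Eif2s3x, at 266, 273 and 282 CPM against 178, 182 and 257 CPM; control 3, the only control with little Y-linked signal, was the nearest to the knockouts.

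For 9 of the members the gene overlaps another in the RefSeq annotation, and whether reads were counted by strand is not stated: Ddit3 with Mbd6 and Mars1, Ppp1r15a with Tulp2, Atf5 with Nup62 and Il4i1b, Psph with Cct6a, Shmt2 with Ndufa4l2, Slc6a9 with Ccdc24, Aars with Ddx19b, Wars with Wdr25, and Eif2ak1 with Ankrd61 and Aimp2. Reads of these partners could be counted in the member, and their values are uncertain to that extent. Eif2ak3, Adm2, Nupr1, Phgdh, Mthfd1l and Slc1a4 had no such partner.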

How the data were processed

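Poly(A)-selected RNA of 12 samples was sequenced. The submitters' processing notes name HISAT2 2.0.4 and the genome build mm9; the counter, its strand setting and the annotation are not given in the sources used here. The deposited table gives expected counts per gene (7.32 to 8.16% of the values were not whole and were rounded) and the authors' FPKM and TPM values; TPM was read only to identify the columns. No per-sample column was left unmapped. Counts were filtered by group size and scaled by TMM in edgeR 4.0.16 (R 4.3.3), and the quasi-likelihood test was fitted over all genes of the 6 samples of each knockout comparison, and of all 12 for the difference of effects and for the controls, with Benjamini-Hochberg adjustment over all tested genes at 0.05. SE is the log2 fold change divided by the square root of F. The edgeR test of the LDH comparison was tried on simulated data. Members and lists were chosen with earlier results of these data known, so the counts are descriptions. All members could be named. Of other lists, the called genes, the 2 lowest p per knockout comparison and the listed Slc38 genes could be named. Replicates are separate samples per the labels, but nothing says that each came from its own animal, so p-values measure the spread between these samples, which may be technical. No libraries were duplicates. Alternatives were no scaling, median-of-ratios scaling, no filter, DESeq2 1.42.0, limma 3.58.1 on log2(FPKM + 1), each sample left out, a replicate block, a fit of all 12 samples and a Y-linked covariate. Alternative values of the non-overlap counts and of the members' medians were added after the data were seen. Same-numbered samples were treated as unpaired.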

Additional observations from a re-analysis of the deposited data

How the results depend on the processing

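Among the LDH comparison's alternatives, the count of 2 called members was 7 by DESeq2, 1 by limma on FPKM (Adm2) and 0 with the Y-linked covariate, and leaving out each sample gave 0 to 8. The count over all genes, 332, was 902, 258 and 3, and 95 to 1068. The fit with the Y-linked covariate rests mainly on LDH control 3. The edgeR fit of all 12 samples called Ddit3, Eif2ak3 and Nupr1 but not Adm2 (adjusted p = 0.0986), with 436 genes in all. Members higher without overlap were 7, and 8 to 14 on leaving samples out; those lower were 3, against 8 without scaling, 8 on FPKM and 3 to 6 on leaving samples out. With 2 samples against 3 the share over all genes rose too, from 11.9% to between 15.4 and 22% higher and from 12.5% to between 14.7 and 21.6% lower. In the Acly comparison no member was called in any alternative run, while the count over all genes, 19, was 11 without scaling, 32 without the filter, 253 by DESeq2, 8 with the replicate block, 6 with the Y-linked covariate, 31 in the fit of all 12 samples and 0 to 132 on leaving samples out; 0 arose without Acly control 1 or control 3, where edgeR gave 2323 and 1008 genes an unadjusted p under 0.05. Members higher without overlap, 10, were 10 to 19 and those lower, 0, were 0 to 3 on leaving samples out, while the share over all genes went from 10.7% to between 12.3 and 20.8% higher and from 11.3% to between 13.1 and 21.5% lower. On FPKM the Acly counts were 8 higher and 0 lower, against 8.07% and 13.3% of all genes. For the difference of effects no member was called in any alternative, and the count over all genes, 23, was 213 by DESeq2, 5 with the replicate block and 5 to 143 on leaving samples out. Between the controls, 21 called members were 11 without scaling and 11 by limma on FPKM, and 15 to 20 on leaving samples out. The count over all genes, 7844, was 7583 and 7474, and 6705 to 7127. Without scaling and on FPKM the share of members called thus lay below that of all genes, 53.2% and 52.4%. Eif2ak3 was called in 7 of 14 alternatives and Adm2 in 8 of 14, with no change of sign. The causes were not tested.

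The replicate numbers are shared by the groups, but the correlations of same-numbered samples' deviations (LDH: 0.0491, -0.159 and 0.00619; Acly: 0.00112, -0.215 and -0.222) do not pair them. With the replicate block 3 members were called with LDH (Adm2, Ddit3 and Eif2ak3; 362 of all genes), 0 with Acly (8), 0 for the difference (5) and 16 between the controls (6697). Depth was even across samples and well above the floor for each member.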
